A study of Mus musculus with 37 samples.

Results

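The SR and TRA2 splicing factors examined here were 10 genes, SRSF1, SRSF2, SRSF3, SRSF5, SRSF6, SRSF7, SRSF10, SRSF11, TRA2A and TRA2B, among 60708 gene IDs in the count table of mouse splenocyte cultures. The rule that picked their rows used gene IDs and no measured value, although the set was proposed with earlier results of these data known. To ask what macrophages change in spleen cells, the study cultured splenocytes of wild-type FVB mice for 48 h with cells of RAW264.7, an established macrophage-like line from mouse, or with medium those cells had conditioned. The RAW cells had been kept for 72 h in 21% oxygen (normoxia) or 1% oxygen (hypoxia), with or without added SPP1, the secreted protein osteopontin. Splenocytes received the medium of the RAW cells (medium, 11 libraries), the cells unwashed (cells, 12 libraries), the cells after a media wash (washed, 12 libraries) or neither (naive, 2 libraries). Within each of the 3 exposures the 4 groups of oxygen and SPP1 had 3 libraries each, except medium normoxia no-SPP1 with 2, which gave 13 groups and 37 libraries in all. Per the protocol in the labels, brefeldin A, an inhibitor of protein secretion, was added before the cells were collected, and all 35 exposed cultures rest on a single macrophage line. A spleen cell suspension is a mixture of cell types, and RAW cells could have been collected with it. The cell make-up was not tested, and in bulk RNA fewer cells of a type and less RNA per cell cannot be told apart.

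SR proteins bind exons through an RNA recognition motif and recruit the splicing machinery through a domain rich in arginine and serine, which is phosphorylated. Most of them also control their own transcripts through poison exons that send the mRNA to decay, and several accompany mRNA out of the nucleus. TRA2A and TRA2B are SR-like proteins that bind GAA-rich exon sequences. In lymphocytes, splicing factors of this kind set which exons of surface receptors such as CD45 are kept when cells become activated.

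The authors aligned these mouse reads to a human genome, so each value below counts mouse 3′-end reads that fell on the human gene. SRSF1 (ENSG00000136450.13) and SRSF6 (ENSG00000124193.16) were listed at 0 in all 37 libraries, in which 3 counts would correspond to 2.01 to 4.97 CPM, and no level or test is given for them. CPM is the usual depth-scaled count, with library totals here adjusted by the trimmed mean of M values (TMM). The other 8 members were counted in every library and passed the filter on low counts. They were SRSF2 (ENSG00000161547.17, 273 to 2053 counts per library), SRSF3 (ENSG00000112081.17, 22 to 328), SRSF5 (ENSG00000100650.16, 450 to 4195) and SRSF7 (ENSG00000115875.19, 68 to 526). The remaining ones were SRSF10 (ENSG00000188529.15, 1084 to 6040), SRSF11 (ENSG00000116754.13, 168 to 391), TRA2A (ENSG00000164548.11, 49 to 699) and TRA2B (ENSG00000136527.18, 1186 to 6519). Together the members held 0.669% to 1.60% of a library's counts, of totals between 631574 and 1337314. How much of each 3′ end is shared between the species was not tested, and paralogs such as TRA2A and TRA2B may exchange reads, so levels are compared between libraries and never between genes.

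The main difference lay between medium and contact with RAW cells, and it moved the members in opposite directions. With RAW cells SRSF2, SRSF3 and SRSF7 were lower and SRSF10, TRA2A and TRA2B higher than in medium, whereas SRSF5 and SRSF11 differed less. Set against naive, the log2 fold change of SRSF3 was 1.51 in medium, -0.32 in cells and -0.35 in washed. The proximal promoters of SRSF2 and SRSF3 are printed because these genes were furthest below medium. Those of TRA2A and TRA2B are printed because they are the SR-like pair that was higher. The sequences are the 250 bases before the annotated start of the mouse gene in RefSeq, on GRCm38.p6, read 5′ to 3′ on the gene's strand. All 10 members matched by symbol, with 11 windows, and 14 short motifs were searched on both strands of these and of all 32851 windows. Capitals mark the TATA box and the CCAAT box (on either strand) in SRSF2 and SRSF3, the CCAAT box and the cAMP response element in TRA2A, and the heat shock element in TRA2B.
Srsf2, chr11:116853095-116853344, minus strand: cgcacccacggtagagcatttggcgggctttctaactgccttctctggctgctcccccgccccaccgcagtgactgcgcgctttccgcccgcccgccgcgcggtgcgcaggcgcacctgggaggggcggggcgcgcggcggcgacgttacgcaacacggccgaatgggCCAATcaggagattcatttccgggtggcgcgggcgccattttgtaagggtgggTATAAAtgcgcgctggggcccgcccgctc
Srsf3, chr17:29032410-29032659, plus strand: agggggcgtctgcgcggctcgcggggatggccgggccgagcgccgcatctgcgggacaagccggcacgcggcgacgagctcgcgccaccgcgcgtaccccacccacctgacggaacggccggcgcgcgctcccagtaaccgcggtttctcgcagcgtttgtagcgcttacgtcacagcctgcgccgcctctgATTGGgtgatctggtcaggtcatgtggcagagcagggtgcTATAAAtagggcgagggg
Tra2a, chr6:49264053-49264302, minus strand: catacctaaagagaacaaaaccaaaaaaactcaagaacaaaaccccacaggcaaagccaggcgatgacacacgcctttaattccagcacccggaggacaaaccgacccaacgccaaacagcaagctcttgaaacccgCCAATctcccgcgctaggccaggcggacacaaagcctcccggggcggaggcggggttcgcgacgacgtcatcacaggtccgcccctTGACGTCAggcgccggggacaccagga
Tra2b, chr16:22266006-22266255, minus strand: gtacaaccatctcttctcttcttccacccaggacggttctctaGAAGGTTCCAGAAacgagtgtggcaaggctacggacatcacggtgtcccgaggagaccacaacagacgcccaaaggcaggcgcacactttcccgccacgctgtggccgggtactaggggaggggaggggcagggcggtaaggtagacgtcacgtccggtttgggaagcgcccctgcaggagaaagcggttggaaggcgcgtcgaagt

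The windows shared some motifs and differed in others. SRSF2 and SRSF3 were the only members with a TATA box, searched for as TATAAA and present in 12.4% of all windows, at 29 and 18 bases before the start. CCAAT (the CCAAT box, 33.8% of all windows) occurred in SRSF2, SRSF3, SRSF10 and TRA2A. TRA2B alone held GAANNTTC (heat shock element, 6.69%), 207 bases before the start, which there continued into the heat shock element of 3 units, found in 0.466% of windows. TRA2A alone held TGACGTCA, the full cAMP response element (1.55%), 27 bases before the start, and the TGACG it contains (17.8%) was in 8 members. GGGCGG (GC box, 32.7%) occurred in 9 members, ATGGCG (YY1, 5.73%) in SRSF2 and SRSF10, and ACGTG (the core that hypoxia-inducible factors bind, 16.6%) in SRSF6 and TRA2B. TTTCCCGC (E2F, 0.895%) occurred in SRSF1, SRSF10 and TRA2B, GCATGCGC (NRF1, 2.26%) in SRSF7 and SRSF11, and CCGGAAG (ETS, 6.91%) in SRSF5, SRSF7 and SRSF11. The E-box CACGTG (6.02%) and the serum response element (0.0609%) were in no member's window. A match describes these letters only, and no binding was measured.

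All 8 counted members were tested, with edgeR's quasi-likelihood test across 5193 IDs and Benjamini-Hochberg adjustment, and a gene is called where its adjusted p was under 0.05. Between any of the 13 groups, 7 of the 8 members were called, against 53.6% of all IDs, SRSF11 being the exception. The adjusted p ranged from 7.22e-10 for SRSF2 to 0.00037 for SRSF5. The paper states that the co-culture experiments were repeated independently. Neither it nor the labels say which libraries came from separate cultures or animals, so p-values measure the spread between these libraries. The spread between libraries of a group, as a biological coefficient of variation, ran from 18.3% for SRSF11 to 37.5% for TRA2A, with a median of 34.0% over all IDs. Of the members, 7 lay below that median. The IDs were not matched for their level of counts, so this does not show that the members varied less than other genes of their level.

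Some libraries stood apart from their groups in the components of all IDs. On the first component (33.2% of the variance), replicate 1 of medium hypoxia no-SPP1 and replicate 3 of medium normoxia no-SPP1 were away from the other 9 medium libraries. On the second (12.3%), 3 washed libraries (hypoxia SPP1 replicate 1, normoxia SPP1 replicates 1 and 2) and cells hypoxia no-SPP1 replicate 2 lay below the rest. Values without some or all of these 6 libraries are given beside the results that touch them most. The medium libraries among them lay toward the cells and washed libraries on the first component, so leaving them out favours larger differences from medium. It also leaves medium normoxia no-SPP1 with replicate 2 alone. Leaving out those of the second component leaves washed normoxia SPP1 with replicate 3 alone.

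**Figure D1:**
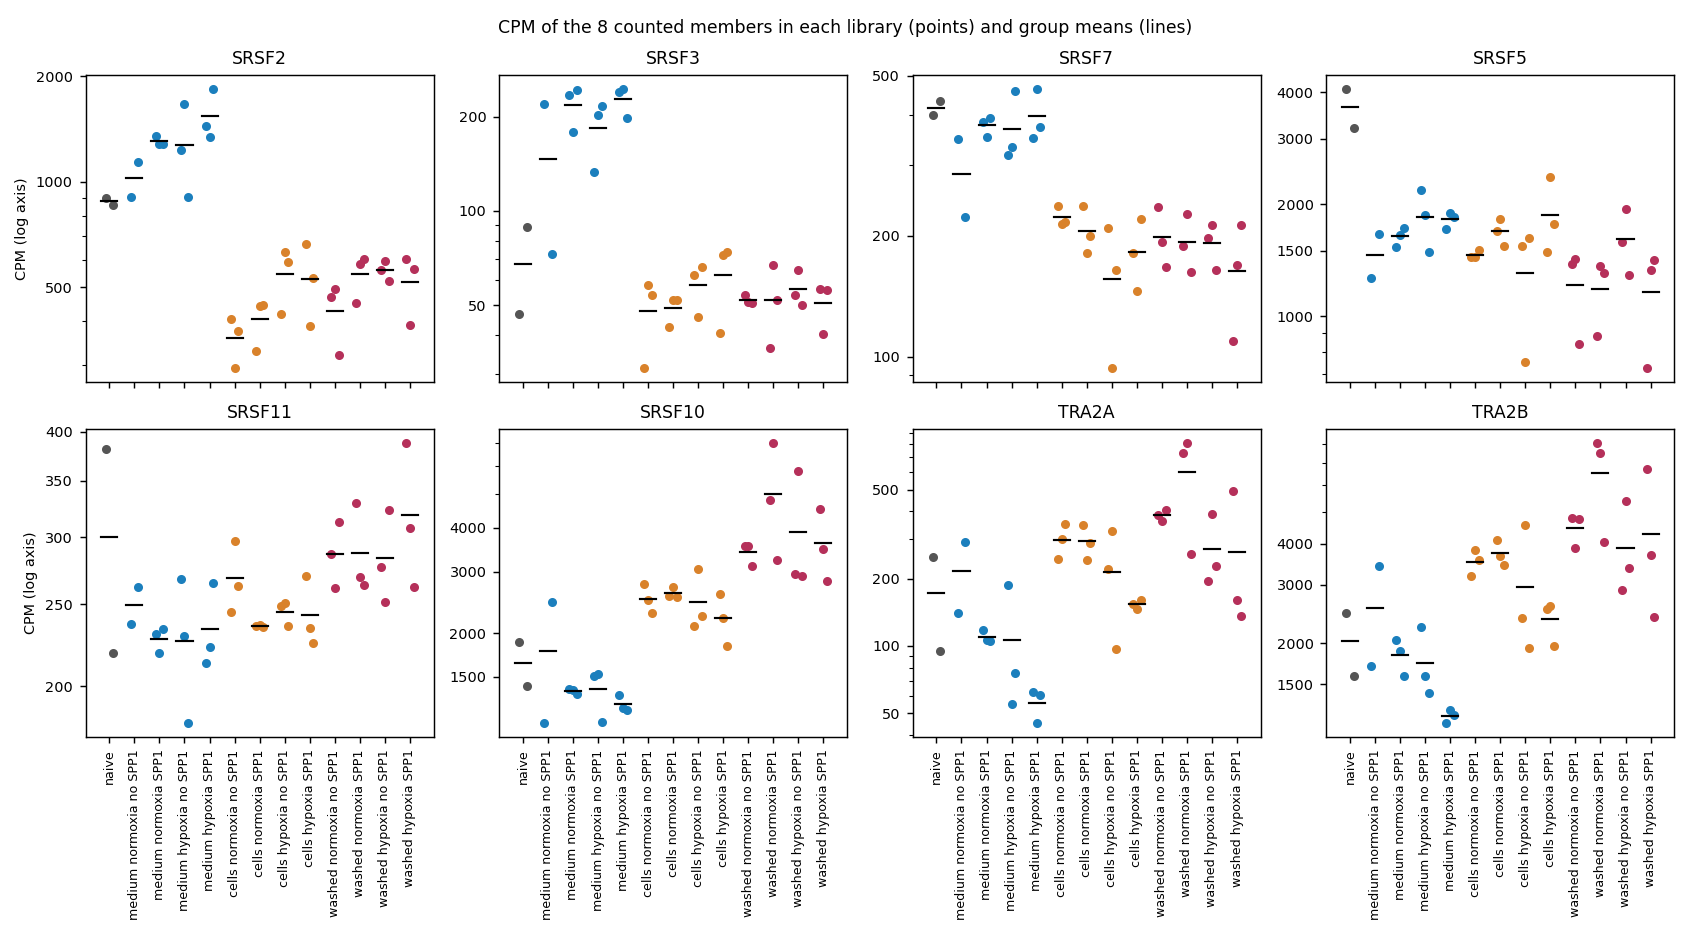
CPM (log axis) of the 8 counted members in each of the 37 libraries by group, points for libraries and black lines for group means, with naive in grey, medium in blue, cells in orange and washed in red. SRSF2 and SRSF3 were high in medium, SRSF5 was highest in the 2 naive libraries, and SRSF10, TRA2A and TRA2B had their lowest mean in medium and their highest in washed, with 1 medium normoxia no-SPP1 library far above the rest for the latter 3.

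Contact with unwashed RAW cells was set against their medium. Of the 8 members, 6 were called, 3 lower (25.3% of all IDs) and 3 higher in cells (23.4%), against 48.7% of all IDs in either direction. The median absolute log2 fold change was 0.85 over the members and 0.57 over all IDs, and the median signed changes were -0.01 and -0.02.

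SRSF2, an SR protein that remains in the nucleus and binds a broad range of exon enhancers, had 903 to 1844 CPM in the 11 medium libraries (median 1285) and 294 to 665 in the 12 cells libraries (median 431). Every medium library lay above every cells library. How many of all IDs separate exposures in this way was not counted, here or below, so such separation describes the member only. The log2 fold change was -1.49 with SE 0.124 (adjusted p 8.75e-12), a 2.81-fold difference, with means of 1309 ± 283 (SD, n = 11) and 459 ± 119 CPM (SD, n = 12).

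SRSF3, the smallest SR protein and an adaptor for mRNA export, had 72.5 to 246 CPM in medium (median 217) and 31.4 to 73.8 in cells (median 53.0). The ranges met only through medium normoxia no-SPP1 replicate 3 at 72.5, a library that stood apart, and the next lowest medium library had 133. The log2 fold change was -1.83 with SE 0.169 (adjusted p 7.77e-11), or 3.54-fold. Of the 8 members SRSF3 was the furthest below medium in this comparison.

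SRSF7, which like SRSF3 links splicing to mRNA export, had 223 to 465 CPM in medium (median 352) and 93.7 to 237 in cells (median 205). Only medium normoxia no-SPP1 replicate 3, at 223, lay within the range of the cells libraries. The log2 fold change was -0.90 with SE 0.134 (adjusted p 1.06e-06).

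SRSF10, an SR protein known as a splicing repressor when dephosphorylated in heat shock and mitosis, had 1109 to 2454 CPM in medium (median 1339) and 1844 to 3055 in cells (median 2515). Apart from medium normoxia no-SPP1 replicate 3 at 2454, no medium library reached the lowest cells library. The log2 fold change was 0.77 with SE 0.139 (adjusted p 2.26e-05).

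TRA2A and TRA2B, which bind the same kind of exon enhancer, moved with it. TRA2A had 45.3 to 293 CPM in medium (median 105) and 96.6 to 352 in cells (median 243), a log2 fold change of 1.09 with SE 0.235 (adjusted p 0.000237). TRA2B had 1147 to 3421 CPM in medium (median 1587) and 1932 to 4554 in cells (median 3322), a log2 fold change of 0.80 with SE 0.163 (adjusted p 0.000109). The groups overlapped for both genes. The 2 medium libraries that stood apart had 187 and 293 CPM of TRA2A, against 45.3 to 141 in the other 9, and 2239 and 3421 CPM of TRA2B, against 1147 to 2048. Without these 2 the log2 fold changes were 1.40 for TRA2A, 0.99 for TRA2B, 0.94 for SRSF10, -1.01 for SRSF7 and -2.03 for SRSF3. Each was larger in size than with the 2 libraries in, which is favoured by the choice of libraries nearer to cells and is no separate support.

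The last pair was not called in this comparison. SRSF5, an SR protein known from studies of regenerating liver, had a log2 fold change of -0.10 (95% interval -0.37 to 0.17, adjusted p 0.55). SRSF11, an SR protein found in the spliceosome, had 0.08 (95% interval -0.14 to 0.31, adjusted p 0.568). The intervals exclude changes of the size seen for SRSF2 or SRSF3.

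Washed RAW cells were set against the same medium libraries, so the comparison shares its reference with the one above. All 8 members were called, 4 lower (30.2% of all IDs) and 4 higher in washed (28.6%), against 58.7% of all IDs in either direction. The median absolute log2 fold change was 1.36 over the members and 0.72 over all IDs.

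SRSF2 had 321 to 604 CPM in the 12 washed libraries (median 541), below every medium library, a log2 fold change of -1.32 with SE 0.124 (adjusted p 6.37e-11). SRSF3 had 36.4 to 67.1 CPM (median 52.8), also below every medium library, with -1.86 (SE 0.170, adjusted p 3.31e-11), a 3.62-fold difference. SRSF7 had 109 to 235 CPM (median 191) and a log2 fold change of -0.93 with SE 0.134 (adjusted p 3.74e-07). Between washed and unwashed cells the log2 fold changes of these 3 members were 0.17 for SRSF2 (95% interval -0.07 to 0.42), -0.03 for SRSF3 (-0.37 to 0.31) and -0.03 for SRSF7 (-0.29 to 0.24).

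SRSF10 had 2826 to 6985 CPM in washed (median 3516), above every medium library, a log2 fold change of 1.46 with SE 0.142 (adjusted p 1.31e-10). TRA2A had 136 to 808 CPM (median 375), a log2 fold change of 1.71 with SE 0.239 (adjusted p 1.93e-07), or 3.27-fold. TRA2B had 2399 to 8058 CPM (median 4389), a log2 fold change of 1.40 with SE 0.166 (adjusted p 8.22e-09), or 2.64-fold. For both TRA2 genes the lowest washed libraries lay within the range of medium. Without the 4 libraries of the second component the log2 fold changes were 1.18 for TRA2A (adjusted p 5.57e-06), 1.09 for TRA2B (adjusted p 3.17e-08) and 1.23 for SRSF10 (adjusted p 1.75e-09). Without the 2 medium libraries they were 1.998 (adjusted p 3.64e-08), 1.57 (adjusted p 3.06e-09) and 1.61 (adjusted p 5.19e-11).

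SRSF5 and SRSF11 had smaller differences, and neither call was stable. SRSF5 had 724 to 1945 CPM in washed (median 1348) and 1268 to 2188 in medium (median 1716), a log2 fold change of -0.40 with SE 0.134 (adjusted p 0.0107). Without medium normoxia no-SPP1 replicate 3 it was -0.31 (adjusted p 0.0603), and without all 6 libraries that stood apart -0.18 (adjusted p 0.207). SRSF11 had 251 to 388 CPM in washed (median 282) and 181 to 267 in medium (median 231), a log2 fold change of 0.33 with SE 0.111 (adjusted p 0.0112). Without medium normoxia no-SPP1 replicate 2 it was 0.27 (adjusted p 0.0682), and without the 4 libraries of the second component 0.24 (adjusted p 0.0881).

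**Figure D2:**
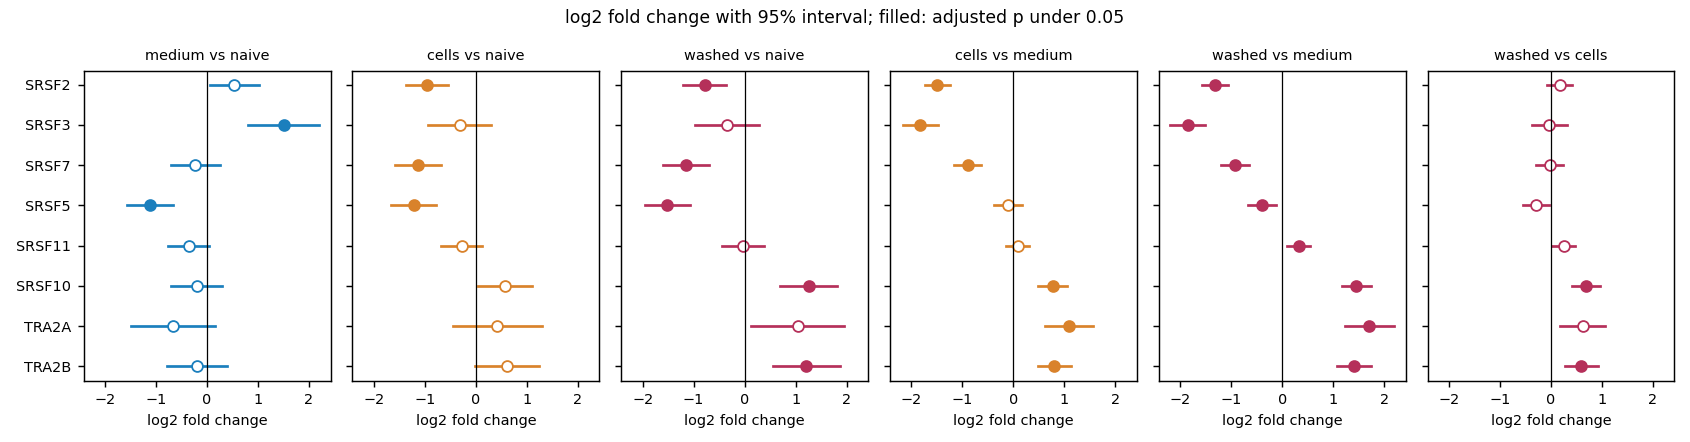
Log2 fold changes (points) with 95% intervals (lines) of the 8 counted members in the 6 comparisons between exposures, filled where the adjusted p was under 0.05. SRSF2, SRSF3 and SRSF7 lie left of 0 and SRSF10, TRA2A and TRA2B right of it in both comparisons with medium, and SRSF5 lies left of 0 in all 3 comparisons with naive.

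The wash itself was examined by setting washed against unwashed cells. SRSF10 and TRA2B were called, both higher in washed, against 7.24% of all IDs, or 4.16% in that direction. SRSF10 had 2449 ± 329 CPM in cells and 3982 ± 1310 in washed (SD, n = 12 each), which is a difference of 0.69 on the log2 scale with SE 0.134 (adjusted p 0.00237). TRA2B had 3148 ± 856 CPM in cells and 4791 ± 1816 in washed, a log2 fold change of 0.60 with SE 0.156 (adjusted p 0.0165). The groups overlapped for both genes. TRA2A had a difference of similar size, 0.62 (95% interval 0.17 to 1.07), but an adjusted p of 0.0772. It was called without the filter on low counts (0.58, adjusted p 0.0198).

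The libraries that stood apart carried the highest TRA2 values here. The 3 such washed libraries had 6729 to 8058 CPM of TRA2B and 492 to 808 of TRA2A, and the other 9 had 2399 to 5385 and 136 to 405. In cells, hypoxia no-SPP1 replicate 2 had 4554 CPM of TRA2B, against 1932 to 4095 in the other 11, together with 754 CPM of SRSF5, against 1442 to 2360, and 93.7 CPM of SRSF7, against 146 to 237. Without these 4 libraries the log2 fold change between washed and cells was 0.42 for TRA2B (adjusted p 0.0836) and 0.53 for SRSF10 (adjusted p 0.0227), so that 1 member was called against 3.43% of the IDs then tested. TRA2B also lost its call without washed hypoxia SPP1 replicate 1 alone (0.48, adjusted p 0.0544), and was called at 0.42 with all 6 libraries left out (adjusted p 0.0205).

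Within each oxygen level the same contrast called 0 members, against 1.29% of IDs after normoxia and 1.62% after hypoxia. SRSF10 had nearly equal log2 fold changes, 0.69 after normoxia (SE 0.189, adjusted p 0.054) and 0.68 after hypoxia (SE 0.189, adjusted p 0.0524). At an unadjusted p under 0.05 there were 5 members after normoxia and 2 after hypoxia, and 969 and 724 of all 5193 IDs.

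The exposures were then set against naive splenocytes, the background without RAW cells or medium, which had only 2 libraries and serve all 3 comparisons. Their treatment label says only naive, and not whether they were cultured like the exposed ones. An effect of exposure and one of culture itself therefore cannot be told apart here. In medium 2 of 8 members were called (32.4% of all IDs), 1 higher (17.1%) and 1 lower (15.3%). In cells 3 were called (27.3%), all lower (13.4%). In washed 5 were called (34.5%), 2 higher (17.5%) and 3 lower (17.1%). SRSF5 was the member called in all 3. The share of all IDs called in all 3, which rest on the same 2 naive libraries, was not counted.

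SRSF5 had 3215 and 4094 CPM in the naive libraries and at most 2360 in any exposed library. Both naive libraries lay above all 35 exposed ones, and how many other IDs did so was not counted. The log2 fold change was -1.12 in medium (SE 0.225, adjusted p 0.000249), -1.22 in cells (SE 0.220, adjusted p 6.69e-05) and -1.51 in washed (SE 0.216, adjusted p 1.42e-06). The lower level was thus shared by cultures that received medium alone and those that received cells.

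SRSF3 differed from naive in medium. It had 46.8 and 88.6 CPM in naive, and its log2 fold change was 1.51 in medium (SE 0.343, adjusted p 0.00102), -0.32 in cells (95% interval -0.94 to 0.31) and -0.35 in washed (95% interval -0.97 to 0.27). The 2 medium libraries that stood apart, at 72.5 and 133 CPM, were the ones nearest to naive, and the other 9 had 178 to 246.

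SRSF2 had 857 and 901 CPM in naive, above every cells and washed library and below every medium library, of which the lowest had 903. It fell by 0.96 on the log2 scale in cells (SE 0.208, adjusted p 0.000601) and by 0.78 in washed (SE 0.211, adjusted p 0.00383). In medium the log2 fold change was 0.53 (95% interval 0.06 to 1.01), with an adjusted p of 0.0777, and it was called without the 4 libraries of the second component (0.60, adjusted p 0.0335). The washed call was lost without naive replicate 1 (adjusted p 0.0959) and without naive replicate 2 (adjusted p 0.061).

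SRSF7 had 400.2 and 432 CPM in naive and also lay below both naive libraries in every cells and washed library. Its log2 fold change was -1.13 in cells (SE 0.223, adjusted p 2e-04), -1.16 in washed (SE 0.222, adjusted p 0.000117) and -0.23 in medium (95% interval -0.72 to 0.25).

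SRSF10 and TRA2B were called against naive in washed alone. SRSF10 had 1412 and 1884 CPM in naive and every washed library was higher, with a log2 fold change of 1.26 with SE 0.276 (adjusted p 0.000553). TRA2B had 1590.4 and 2463 CPM in naive, the latter within the range of washed, and a log2 fold change of 1.21 with SE 0.322 (adjusted p 0.00356). Without naive replicate 2 both calls were lost (1.08, adjusted p 0.0558, for SRSF10 and 0.95, adjusted p 0.156, for TRA2B). In cells the values were 0.57 (adjusted p 0.101) and 0.61 (adjusted p 0.137), and both were called without all 6 libraries that stood apart (0.56, adjusted p 0.0223, and 0.53, adjusted p 0.0298), when 36.7% of IDs were called.

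TRA2A had 95.1 and 249 CPM in naive, a wide gap between the 2 libraries. No exposure was called against naive, with log2 fold changes of -0.66 in medium (95% interval -1.49 to 0.16), 0.42 in cells (-0.45 to 1.297) and 1.04 in washed (0.13 to 1.96, adjusted p 0.0696). Leaving out the 2 medium libraries that stood apart gave -0.95 in medium with an adjusted p of 0.0457 and 1.05 in washed with an adjusted p of 0.0393. Without the filter on low counts the washed value was 1.13 with an adjusted p of 0.0107. SRSF11 was also not called, with 219 and 382 CPM in naive and log2 fold changes between -0.36 and -0.03.

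The order of mean levels differed by gene. For SRSF3 it was medium (198 ± 53.4 CPM), naive (67.7 ± 29.5), cells (54.2 ± 12.96) and washed (52.7 ± 8.55), in which the last 3 did not differ beyond their spread. For SRSF2 it was medium, naive, washed and cells, in which medium and naive were not separated by the test, nor washed and cells. For SRSF5 it was naive (3654 ± 622 CPM), medium (1714 ± 243), cells (1584 ± 364) and washed (1291 ± 337), in which cells was separated from neither medium nor washed. For SRSF7 it was naive, medium, cells and washed, with a separation between medium and cells only. For TRA2B it was washed, cells, naive (2027 ± 617 CPM) and medium (1773 ± 649), with a separation between washed and cells only among neighbours, and the same held for SRSF10. For TRA2A (washed, cells, naive, medium) and SRSF11 (naive, washed, cells, medium) no neighbours were separated.

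**Figure D3:**
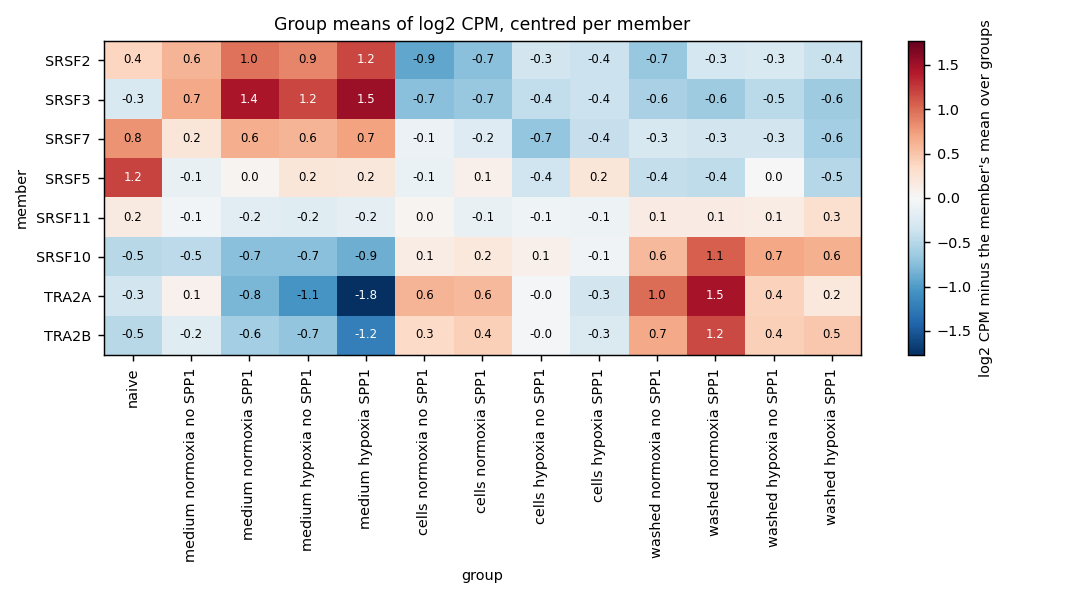
Group means of log2 CPM for the 8 counted members (rows) in the 13 groups (columns), each row centred on its mean over the groups, red for above and blue for below. SRSF2 and SRSF3 are red in the medium groups, where SRSF10 and TRA2B are blue, and blue in the cells and washed groups, where SRSF10 and TRA2B are red except in the 2 cells hypoxia groups, in which they lie near 0 or below.

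Across the 13 group means the members split into 2 sets by the sign of their correlations. Of the 28 pairs of counted members, 12 had a Pearson correlation above 0, namely the 6 pairs among SRSF2, SRSF3, SRSF5 and SRSF7 and the 6 among SRSF10, SRSF11, TRA2A and TRA2B. The highest was 0.97 for TRA2A and TRA2B, followed by 0.95 for SRSF10 and TRA2B and 0.94 for SRSF2 and SRSF3. The lowest was -0.83 for SRSF3 and SRSF10. SRSF5 and SRSF11 had weaker values, down to 0.25 for SRSF5 and SRSF3. These are descriptions over 13 group means from the same libraries and scaling, and reads shared between TRA2A and TRA2B were not tested. Whether other genes split in the same way was not tested either. Over all IDs the calls in cells against medium were also divided, 25.3% lower and 23.4% higher. Among 2847 other IDs with a mean log2 CPM of at least 4, the pattern most like the mean of the members was that of ENSG00000029363.17 (Pearson correlation 0.86 over the 13 group means), followed by ENSG00000170759.11 (0.83). As members of the 2 sets other than SRSF5 and SRSF11 differed clearly in opposite directions, that mean partly cancels and need not stand for any single member.

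The balance of the sets can be read without any scaling as the ratio of TRA2B to SRSF3 counts within a library. Its absolute size has no meaning here, since the genes differ in how many mouse reads they catch. The ratio was 4.78 to 47.2 in medium (median 7.77), 26.5 to 101 in cells (median 66.1) and 43.1 to 221 in washed (median 85.9). The naive libraries had 18.0 and 52.6. The 47.2 in medium was again from normoxia no-SPP1 replicate 3.

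**Figure D4:**
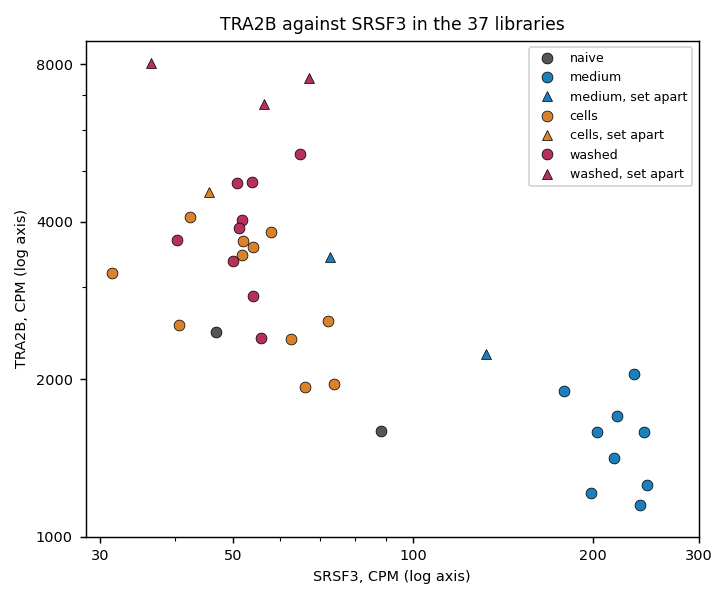
TRA2B against SRSF3, members already seen to differ from medium in opposite directions, both in CPM on log axes. There is 1 point per library, coloured by exposure, with triangles for the 6 libraries that stood apart. Medium libraries lie at high SRSF3 and low TRA2B, with the medium triangle at 133 CPM of SRSF3 between them and the other exposures and that at 72.5 CPM within the range of the cells libraries, and the washed triangles have the highest TRA2B.

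The effect of the oxygen level at which RAW cells had been kept was tested within each exposure, averaged over SPP1. No member was called in medium (0.077% of all IDs), in cells (3.62%) or in washed (0.0385%). At an unadjusted p under 0.05 there were 2 members in medium, 3 in cells and 1 in washed, and 382, 928 and 426 of all 5193 IDs. TRA2A had the widest difference of the members in each exposure.

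TRA2A had a median of 61.0 CPM (45.3 to 187) in medium after hypoxia and 118 (105 to 293) after normoxia, and 5 of the 6 hypoxia libraries lay below all 5 normoxia ones. In cells it had 157 (96.6 to 328) and 295 (242 to 352), and in washed 212 (136 to 492) and 396 (257 to 808). The log2 fold changes were -1.003 in medium (95% interval -1.69 to -0.32, adjusted p 0.405), -0.71 in cells (-1.34 to -0.07, adjusted p 0.224) and -0.86 in washed (-1.49 to -0.22, adjusted p 0.447). The exceptions to the lower level after hypoxia in medium and cells were medium hypoxia no-SPP1 replicate 1 (187 CPM) and cells hypoxia no-SPP1 replicate 2 (328 CPM), which both stood apart.

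TRA2B had smaller differences in the same direction. In cells it had 1932 to 4554 CPM after hypoxia (median 2465) and 3189 to 4095 after normoxia (median 3627), and 5 of 6 hypoxia libraries lay below all normoxia ones. The log2 fold changes were -0.58 in medium (95% interval -1.06 to -0.11, adjusted p 0.526), -0.46 in cells (-0.91 to -0.01, adjusted p 0.262) and -0.41 in washed (-0.86 to 0.04, adjusted p 0.656). Without the 4 libraries of the second component the log2 fold changes in cells were -0.91 for TRA2A and -0.67 for TRA2B. Without all 6 libraries the values were -0.93 and -0.68. The cells library left out in both, hypoxia no-SPP1 replicate 2, had the highest TRA2A and TRA2B of the cells hypoxia libraries. Leaving it out therefore lowers the hypoxia side and is no separate support for an oxygen effect.

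SRSF2 differed the other way in cells. It had 387 to 665 CPM after hypoxia (median 561) and 294 to 444 after normoxia (median 389), a log2 fold change of 0.50 (95% interval 0.15 to 0.84, adjusted p 0.098), and it was called by DESeq2 (0.53, adjusted p 0.0419). The intervals of SRSF10 and SRSF11 lay between -0.65 and 0.37 in all 3 exposures. The oxygen effect was not shown to differ between exposures for any member, with 0 called for cells against medium (0.481% of all IDs), washed against medium (0%, with 184 IDs at an unadjusted p under 0.05 and 0 called by DESeq2) and washed against cells (0.173%). For TRA2A these differences were 0.29 (95% interval -0.64 to 1.23), 0.15 (-0.78 to 1.08) and -0.15 (-1.04 to 0.75).

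SPP1 given to the RAW cells called no member in medium (0.25% of all IDs), cells (0%) or washed (0.0193%). In cells, where edgeR and DESeq2 called 0 IDs, 87 IDs and 0 members had an unadjusted p under 0.05. In medium TRA2A had 45.3, 60.2 and 61.9 CPM with SPP1 after hypoxia and 55.3, 75.7 and 187 without. After normoxia it had 105, 106 and 118 CPM with SPP1 and 141 and 293 without. All SPP1 libraries lay below those without SPP1 after normoxia, and after hypoxia the groups overlapped. The log2 fold change was -0.95 (95% interval -1.64 to -0.27, adjusted p 0.356), and that of TRA2B was -0.51 (-0.98 to -0.03, adjusted p 0.521). The 2 medium libraries that stood apart were both without SPP1. Without these 2 libraries the log2 fold changes were -0.28 for TRA2A and -0.08 for TRA2B, with medium normoxia no-SPP1 resting on replicate 2 alone.

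In washed the TRA2 values had the opposite sign with all libraries in, with log2 fold changes of 0.29 for TRA2A (95% interval -0.34 to 0.92) and 0.34 for TRA2B (-0.10 to 0.79). The highest group of TRA2B was washed normoxia SPP1, with 4033, 7538 and 8058 CPM, against 3891, 4745 and 4774 without SPP1. The upper pair in the SPP1 group were libraries that stood apart. Without the 4 libraries of the second component the sign turned, to -0.70 for TRA2A and -0.23 for TRA2B. The washed libraries among the 4 were all with SPP1 and had the highest TRA2 values in washed, so this choice lowers the SPP1 side. Washed normoxia SPP1 then rested on replicate 3 alone. The difference of the SPP1 effect between washed and medium was 1.25 for TRA2A (95% interval 0.31 to 2.18, adjusted p 0.307) and 0.85 for TRA2B (0.20 to 1.50, adjusted p 0.31), and no member or other ID was called for it, although 538 IDs had an unadjusted p under 0.05. Without all 6 libraries that stood apart these differences had the opposite sign, -0.43 for TRA2A and -0.16 for TRA2B, with the same limit. For cells against medium and washed against cells 0 members and 0 IDs were called as well, with 255 and 391 IDs at an unadjusted p under 0.05. DESeq2 called 13, 4 and 3 IDs in these 3 contrasts, and 0 members.

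Whether SPP1 acted differently after hypoxia and normoxia was tested in each exposure, with 0 members and 0 IDs called (0% of all IDs). At an unadjusted p under 0.05 there were 189, 88 and 262 IDs in medium, cells and washed, and 0 members. DESeq2 called 1, 0 and 0 IDs and 0 members.

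**Figure D5:**
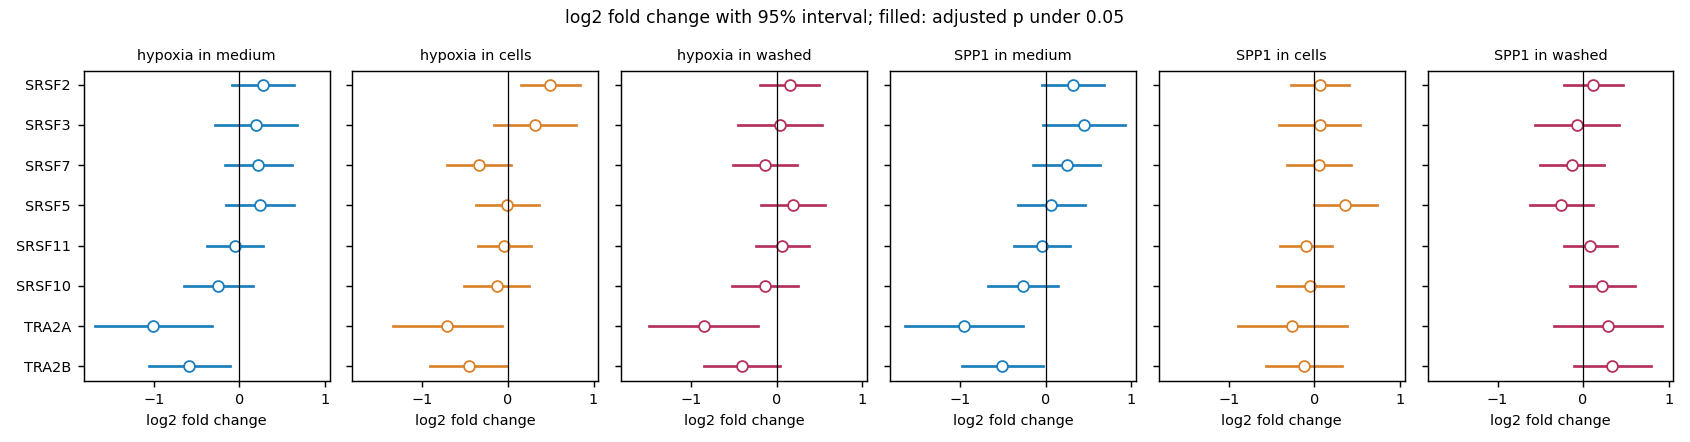
Log2 fold changes (points) with 95% intervals (lines) of the 8 counted members for hypoxia against normoxia and for SPP1 against no SPP1 within each exposure, open because no adjusted p was under 0.05. TRA2A lies left of 0 for hypoxia in all 3 exposures, at -1.003, -0.71 and -0.86, and for SPP1 in medium at -0.95.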

How the data were processed

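Splenocyte RNA was sequenced by QuantSeq, which reads mRNA from its 3′ end. Per the deposited design text of the series, the authors trimmed reads with bbduk, used STAR 2.7.10b to align them to GRCh38, a human genome, and obtained gene counts from featureCounts (Rsubread 2.0.3). The deposited values were raw counts, and 100% were whole numbers. The annotation release, the handling of multiply aligned reads and any use of the molecular identifiers were not given in the sources used here, so a count may include PCR copies. All 60708 row IDs were human Ensembl IDs, and 0 occurred in the mouse name table, so only the members could be named, and the lists of pathway genes and cell type markers planned for this work were not tested. Members and lists were chosen with earlier results of these data known.

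Counts were analysed with R 4.3.3 and edgeR 4.0.16. Of 22657 IDs with a count, 5193 passed filterByExpr (minimum count 10, by group). A quasi-likelihood model with a mean per group was fitted to all 37 libraries after TMM scaling. The replicate number was left out, as same-numbered libraries did not go together across the series as a whole, which does not exclude pairing among some. Groups came from the treatment labels. Standard errors came from the F statistic, 95% intervals from the t distribution, and log2 CPM used a prior count of 2. The members named were all those in the list, and the likeness rule asked for the 2 most correlated IDs. Total counts were 631574 to 1337314 per library (median 1063211), and floors of 3 counts cover counting error only, whereas the intervals of fold changes include the spread between libraries. No pair of replicates agreed within sampling noise (chi-square per degree of freedom of 2.78 or more). The pipeline was tested on simulated data. Alternatives were RLE scaling, no filter, a replicate block, fits of only the groups compared, DESeq2 1.42.0, leaving out each library, and leaving out libraries that stood apart (the set of all 6 was chosen after seeing the data). Figures used Python 3.11.15 and matplotlib 3.10.9.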

Additional observations from a re-analysis of the deposited data

Results flagged for a closer look

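In 48 sets of 5 or 6 libraries, 1 for each counted member, exposure and oxygen level, 6 held a library far from the others by Dixon's test at the 95% level. Chance flags about 1 in 20 such sets. Of the 6, 4 were medium normoxia no-SPP1 replicate 3. It had 222.523 CPM of SRSF7 (348 to 393 in the other 4 medium normoxia libraries), 2454.03 of SRSF10 (1109 to 1389), 292.976 of TRA2A (105 to 141) and 3420.85 of TRA2B (1587 to 2048). Medium hypoxia no-SPP1 replicate 1 had 186.541 CPM of TRA2A, against 45.3 to 75.7 in the other 5 medium hypoxia libraries. Cells hypoxia no-SPP1 replicate 2 had 4553.77 CPM of TRA2B, against 1932 to 2583 in the other 5 cells hypoxia libraries. These 3 libraries also stood apart in the components of all IDs. Values with such libraries left out stand in the report beside the comparisons with medium, between washed and cells, of oxygen in cells and of SPP1.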

How the results depend on the processing

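Of 26 called fold changes of members, no alternative reversed any. All 26 remained called under RLE scaling, DESeq2, a replicate block and fits of only the groups compared, 24 without the filter on low counts and without the 4 libraries of the second component, and 25 without the 2 medium libraries of the first component and without all 6. Fits that left out 1 library kept 955 of 962. Counts of members called changed as follows, with the share of all IDs called under the same setting in brackets. Cells against naive (3) gave 5 without the filter (6.17%) and 5 without all 6 libraries (36.7%). Medium against naive (2) gave 3 without the 4 libraries (38.7%), without the 2 medium libraries (32.7%) and without all 6 (42.4%), and 2 to 3 when 1 library was left out. Washed against naive (5) gave 6 without the 2 medium libraries (34%) and 2 to 6 when 1 was left out, with 2 without naive replicate 2. Washed against medium (8) gave 7 without the filter (14.2%), the 4 libraries (51.1%), the 2 medium libraries (53.6%) or all 6 (54.2%), and 7 to 8 when 1 was left out. Washed against cells (2) gave 3 without the filter (1.59%), 1 without the 4 libraries (3.43%), and 1 to 3 when 1 was left out, with 1 without washed hypoxia SPP1 replicate 1. After normoxia (0) it gave 1 with RLE scaling (1.41%), without the filter (0.843%), without the 2 medium libraries (1.42%) and with DESeq2 (4.51%), 2 with only the groups compared (9.34%), and 0 to 3 when 1 was left out, with 3 without washed normoxia SPP1 replicate 3. After hypoxia (0) it gave 1 without the filter (0.689%), the 4 libraries (1.84%) or the 2 medium libraries (2.07%) and with DESeq2 (2.56%), 2 without all 6 (4%), and 0 to 2 when 1 was left out, with 2 without cells hypoxia no-SPP1 replicate 2. Hypoxia in medium (0) gave 1 without the filter (0.0706%), TRA2A at -1.01 with an adjusted p of 0.0448. Hypoxia in cells (0) gave 2 without the 4 libraries (4.08%) and without all 6 (6.81%), 1 with DESeq2 (5.58%), and 0 to 1 when 1 was left out, with 1 without cells hypoxia no-SPP1 replicate 1. For hypoxia in cells, the libraries left out included the cells hypoxia library with the highest TRA2 values, which lowers the hypoxia side. The cause of these moves was not tested.

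The replicate block moved 2 counts, washed against naive from 5 to 6 (33.5%, TRA2A with an adjusted p of 0.0348) and washed against cells after hypoxia from 0 to 1 (1.66%, SRSF10 with an adjusted p of 0.0483). Deviations of same-numbered libraries did not go together as a whole (median r 0.00679 over 210 pairs, 36 above 0.1, range -0.477 to 0.530). Of 37 libraries, 17 were closest to their own number, and the number expected without pairing was not worked out. The median correlation shows no pairing across the series as a whole, and these values cannot exclude one among some libraries. RLE scaling shifted the median of all IDs by -0.113 and -0.110 in cells and washed against naive, DESeq2 by -0.114 and -0.111, and no filter by 0.150, 0.154 and 0.138 in medium, cells and washed against naive. The 2 naive libraries and the few counts of SRSF3, from 22 per library, limit the precision.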
